A study of Homo sapiens with 12 samples.

Results

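The BCL2 family decides whether the mitochondria of a cell stay sealed or release the proteins that start apoptosis. RNA levels of 10 of its genes were read in 2 kinds of human neuron, chosen as the rows of both expression tables whose gene symbol was *BCL2*, *BCL2L1*, *BCL2L2*, *MCL1*, *BAK1*, *BCL2L11*, *BID*, *BAD*, *BMF* or *HRK*. All 10 had 1 row in each table, among 16093 genes found in both. HB9-iMNs (iMNs) were motor neurons from an induced pluripotent stem cell line with Td-Tomato under the HB9 promoter, sorted by FACS for Td-Tomato. iNeurons (i3Ns) were excitatory neurons from H1, an established human embryonic stem cell line, made by doxycycline-induced NGN2 and labelled as cortical neurons. Each kind was transduced with a lentivirus carrying a doxycycline-induced shRNA, either against *SMN1* and *SMN2* (*SMN*-KD) or scrambled (SCR), and RNA was taken after 12 days. The 12 libraries were 3 SCR and 3 *SMN*-KD libraries of each kind. Every value here is the authors' mean normalized count over both treatments, so it gives the level in a kind of neuron and not the response to *SMN*-KD, which was not analysed here. No value per library was used, so no error between replicates and no test can be given.

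The family falls into 3 roles. The pro-survival proteins BCL2, BCL-xL (*BCL2L1*), BCL-w (*BCL2L2*) and MCL1 hold the pore-forming effectors, BAK (*BAK1*) and BAX, in check. The BH3-only proteins BIM (*BCL2L11*), BID, BAD, BMF and HRK carry death signals and act by pushing their BH3 helix into a groove of the other members. In developing neurons, loss of trophic support is known to act through BH3-only proteins such as BIM and HRK, and BCL-xL and MCL1 are known to be needed for the survival of young neurons.

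The BH3 stretch is what all 10 genes share, and its coding sequence is shown for each. In the BH3-only proteins it is the part pushed into the groove of other members. It was found in the MANE Select transcript (the reference transcript of a gene) of GENCODE release 44 by its pattern of hydrophobic residues around a small residue and an aspartate. The pattern describes the BH3 stretch of this family, so a match in each of the 10 genes is no test. It occurred once in each of them, and in 6.38% of 14115 MANE Select coding sequences of genes in both tables. The stretches are 24 bases long, lie each within 1 coding exon and are written 5′ to 3′ on the coding strand with their GRCh38 positions, and the capitals mark the codons of the small residue and the aspartate.
BCL2, chr18:63318355-63318378, minus strand: ctccgccaggccGGCGACgacttc
BCL2L1, chr20:31721928-31721951, minus strand: ctgagggaggcaGGCGACgagttt
BCL2L2, chr14:23307903-23307926, plus strand: atgcgggcagctGGAGATgagttc
MCL1, chr1:150578871-150578894, minus strand: ttacgacgggttGGGGATggcgtg
BAK1, chr6:33575393-33575416, minus strand: ctcgccatcatcGGGGACgacatc
BCL2L11, chr2:111150103-111150126, plus strand: ttgcggcgtattGGAGACgagttt
BID, chr22:17739421-17739444, minus strand: ctcgcccaggtcGGGGACagcatg
BAD, chr11:64271628-64271651, minus strand: ctccggaggatgAGTGACgagttt
BMF, chr15:40104201-40104224, minus strand: cttcagtgcattGCAGACcagttc
HRK, chr12:116881176-116881199, minus strand: ctcaaggcgctaGGCGACgagctg

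The small residue was glycine in 8 of these, while *BAD* had a serine codon and *BMF* an alanine codon there. The most alike pairs had 17 of 24 bases in common. These were *BCL2* with *BCL2L1*, *BCL2L1* with *HRK*, *BCL2L11* with *BAD*, and *BAK1* with *BID*. The pairs *BCL2* with *BCL2L1* and *BCL2L11* with *BAD* lie within a role, and the other pairs join different roles. The least alike pair, *BCL2L2* with *BID*, had 7 bases in common.

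The tables differ in how much they list. For iMNs 16406 genes were listed, at a median of 875, and for i3Ns 19016 genes, at a median of 577. Which table belongs to which kind of neuron was taken from the names of the tables, which match the names of the libraries. The targets of the shRNA, *SMN1* and *SMN2*, had 5 identifiers in each table, summing to 1174 in iMNs and 1079 in i3Ns with both treatments pooled, which does not check the knockdown. Salmon can split their reads between the near-identical copies. The neuronal markers *TUBB3*, *MAP2*, *RBFOX3*, *SNAP25*, *STMN2* and *NEFL* were listed in both tables, at 1351 or more. *SNAP25* was higher in iMNs (18426 and 4847) and *NEFL* in i3Ns (119522 and 349907), while the other 4 differed by less than 2-fold. Of 7 motor neuron markers, *SLC5A7* was at 8460 in iMNs and 2472 in i3Ns. *SLC18A3* (3115 and 1865) and *CHAT* (533 and 527) differed by less than 2-fold. The transcription factors *MNX1* (HB9 itself), *ISL1*, *ISL2* and *LHX3* were 4.95-fold or more higher in i3Ns. Of the 7, 4 were thus at least 2-fold higher in i3Ns, against the labels, and 1 in iMNs. The glutamatergic transporter genes *SLC17A6* (593 and 11237) and *SLC17A7* (50.1 and 6490) were higher in i3Ns, and so was *BHLHE22* (31.2 and 584), while the other 3 of the 6 glutamatergic markers differed by less than 2-fold. Among genes added after these values were seen, *HOXA5*, *HOXB5*, *HOXB8*, *HOXC4*, *HOXC5* and *HOXC6*, which mark the hindbrain and spinal cord, ranged from 437 to 11557 in iMNs. In i3Ns *HOXB5* and *HOXC5* were not in the table and the other 4 were at 22.3 or less. The cortical gene *TBR1* (10.2 and 1801), added likewise, was higher in i3Ns, and *EMX1* was in that table alone at 59.1. Markers of other cells also differed, and their part in the results below was not tested. Those of dividing cells (*MKI67*, *TOP2A*, *CCNB1*, *CDK1*) summed to 213 in iMNs and 1145 in i3Ns, and *CDK1* was not in the iMN table. Those of mesenchymal cells (*COL1A1*, *COL1A2*, *COL3A1*, *LUM*, *DCN*) summed to 2546 and 5949, though *COL1A2* was lower in i3Ns (686 and 611). Those of stem cells and progenitors (*POU5F1*, *NANOG*, *LIN28A*, *SOX2*, *PAX6*, *NES*) summed to 6546 and 34061, but did not all go the same way. *NES* (6043 and 29662) and *LIN28A* (215 and 4216) made up most of that sum. *PAX6* (234 and 102) and *SOX2* (53.9 and 38.9) were lower in i3Ns. *POU5F1* (34.4 over its identifiers) and *NANOG* (7.73) were in the i3N table alone. Of 5 glial markers, *GFAP*, *AQP4* and *SOX10* were in neither table, *S100B* was in the iMN table alone at 29.8, and *OLIG2*, which also marks motor neuron progenitors, was at 20.7 and 362. Fewer cells of a type and less RNA per cell cannot be told apart in such bulk samples.

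Among the pro-survival genes, *MCL1* and *BCL2L1* were the most abundant in both kinds of neuron. *MCL1* (ENSG00000143384, chr1:150560895-150579738, minus strand, GRCh38), which encodes a short-lived protein made anew all the time, had a mean normalized count of 8687 in iMNs and 9982 in i3Ns. *BCL2L1* (ENSG00000171552, chr20:31664452-31723989, minus strand), the gene of BCL-xL, stood at 6364 in iMNs and 6512 in i3Ns. Both are single genes from which long, protective and short, death-promoting forms can be spliced, and a gene-level count does not separate them. The antisense gene *ABALON* overlaps 36.7% of the *BCL2L1* transcript and was in neither table. The gene of BCL-w, a family member common in the adult nervous system, was next. *BCL2L2* (ENSG00000129473, chr14:23298790-23311751, plus strand) had a mean normalized count of 1953 in iMNs and 2099 in i3Ns. It shares 590 exonic bases, 16.7% of its transcript, with the readthrough gene *BCL2L2-PABPN1*, listed at 88.9 and 116, and reads can be split between them. *BCL2* (ENSG00000171791, chr18:63123346-63320128, minus strand), the founding member of the family, had the lowest mean of the 4, at 1258 in iMNs and 1201 in i3Ns.

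A longer transcript gives more reads, so an order by mean normalized count also reflects transcript length. To compare the members with each other, levels were divided by the length of the MANE Select transcript in kilobases. Per kilobase, *BCL2L1* was at 2472 in iMNs and 2530 in i3Ns, and *MCL1* at 2199 and 2527. Among 14361 genes with a length, these levels were above those of 92% or more of the genes in either kind. The level per kilobase of *BCL2*, with a transcript of 6881 bases, was 183 in iMNs and 175 in i3Ns. *BCL2L1* thus exceeded *BCL2* by 13.5 times in iMNs and 14.5 times in i3Ns. *BCL2L2* lay between, at 554 and 595 per kilobase.

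*BAK1* (ENSG00000030110, chr6:33572547-33580293, minus strand), the one effector among the 10, had the lowest mean normalized count of them all in both kinds, 610 in iMNs and 524 in i3Ns. Its transcript is short, at 2170 bases, and per kilobase it was 6th of 10 in iMNs (281) and 8th in i3Ns (241). The other effector genes, which are not among the 10, were more abundant per kilobase. *BAX* was at 820 per kilobase in iMNs and 1589 in i3Ns, and *BOK* at 683 and 913.

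The BH3-only genes had means from 690 to 2381. *BCL2L11* (ENSG00000153094, chr2:111119378-111168444, plus strand), the gene of BIM, which can bind all pro-survival members, had a mean normalized count of 712 in iMNs and 2381 in i3Ns. In the order of mean normalized counts it was 9th of 10 in iMNs and 3rd in i3Ns, and per kilobase it was 10th and 5th. An antisense gene, *MIR4435-2HG*, overlaps 14.3% of its transcript and was in neither table, as was *BMF-AS1*, which overlaps 9.83% of that of *BMF*. *HRK* (ENSG00000135116, chr12:116856144-116881441, minus strand), whose product binds mainly BCL-xL, was at 833 in iMNs and 1880 in i3Ns. In the other direction, *BMF* (ENSG00000104081, chr15:40087890-40108892, minus strand), which senses detachment and cytoskeletal stress, was at 1307 in iMNs and 704 in i3Ns. *BAD* (ENSG00000002330, chr11:64269830-64284704, minus strand), which growth factor signalling keeps inactive by phosphorylation, was at 2343 and 1463. *BID* (ENSG00000015475, chr22:17734138-17774770, minus strand), which caspase-8 cleaves to link death receptors to the mitochondria, had closer values, 766 and 690. Of these 5 genes, *BCL2L11* and *HRK* had the higher mean in i3Ns, and *BAD*, *BMF* and *BID* in iMNs.

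**Figure D1:**
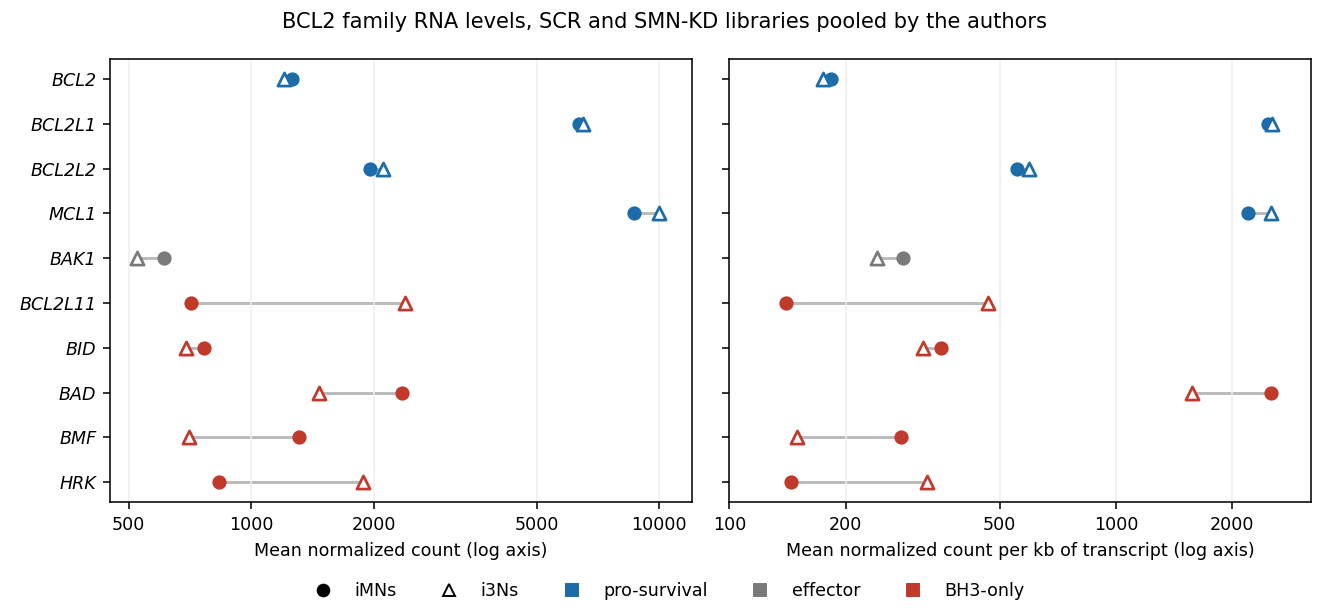
Mean normalized count of each member (left) and the same per kilobase of MANE Select transcript (right), both on log axes, for iMNs (filled circles) and i3Ns (open triangles), with colours for the roles. Each point is the authors' mean over SCR and SMN-KD libraries and has no error bar, because no value per library was used. The iMN and i3N points of each of the 4 pro-survival genes lie close together, while *BCL2L11* runs from 712 to 2381 and *BMF* from 1307 to 704.

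Per kilobase, *BAD* stood out among the BH3-only genes because its transcript has only 929 bases. It was at 2522 in iMNs, 1.02 times *BCL2L1*, and at 1575 in i3Ns, 0.622 times *BCL2L1*. Exons of *GPR137* on the opposite strand cover 33.8% of that transcript. *GPR137* was listed at 2078 and 1739, and the sources do not say whether the libraries were stranded, so the level of *BAD* is uncertain. The other 4 BH3-only genes were lower. *BID* was at 352 per kilobase in iMNs and 317 in i3Ns. *BMF* was at 278 and 150, *HRK* at 144 and 325, and *BCL2L11* at 140 and 467. In i3Ns *BCL2L11* therefore had 3.11 times the level of *BMF*, whereas in iMNs it had 0.501 times that level. This ratio lies within a table and does not depend on how the tables were scaled to each other. The order of neighbours within a table cannot be set against a spread between libraries. Over the 10 genes, Spearman's rho between the levels per kilobase in iMNs and i3Ns was 0.65, as a description.

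The tables were normalized separately. To set them side by side, the log2 ratio of the i3N over the iMN mean was centred on its median, 0.10, over 15170 genes with a mean of at least 10 in both. A 2-fold difference after centring was used as the mark of a large difference, with no test behind it. By that mark, 2 of the 10 genes were higher in i3Ns and 0 were higher in iMNs. Among all 16093 genes, 9.46% were at least 2-fold higher in i3Ns and 15.2% were at least 2-fold higher in iMNs. Among the 9155 genes with a mean of at least 500 in both tables, a limit chosen after the values were seen, these shares were 4.01% and 6.93%. All 10 genes had means above 500 in both tables, so the latter shares are the closer match. The 2 genes of 10 higher in i3Ns are a larger share than either background. With so few genes, 1 of them just past the mark, and no test, nothing particular to the family is read from these counts. Centred medians were -0.12 for the 10 genes and -0.03 for all genes.

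*BCL2L11* was the farthest apart, at a centred log2 ratio of 1.64, or 3.12-fold higher in i3Ns. Of all genes, 12.5% lay at least as far apart in either direction. *HRK* followed with 1.08, 2.11-fold higher in i3Ns, just past the mark, and 22.6% of genes lay at least as far apart. *BMF*, at -0.99, was 1.99-fold higher in iMNs and just short of it. *BAD* had a centred log2 ratio of -0.78, or 1.72-fold higher in iMNs. *BAK1* (-0.32) and *BID* (-0.25) were 1.25-fold and 1.19-fold higher in iMNs.

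The pro-survival genes were close to the centre. *BCL2* had a centred log2 ratio of -0.17, *BCL2L1* of -0.07, *BCL2L2* of 0.00 and *MCL1* of 0.10. Without centring, *BCL2L1* changed sign, to 0.03. All 4 were within 1.12-fold, and 80.7% of all genes or more lay at least as far apart as each of them. The 5 BH3-only genes ranged from -0.99 to 1.64. Each kind of neuron came from 1 stem cell line with its own protocol, so the kind of neuron, the line and the protocol cannot be told apart. A response of a gene to *SMN*-KD in one kind would also move its pooled mean.

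**Figure D2:**
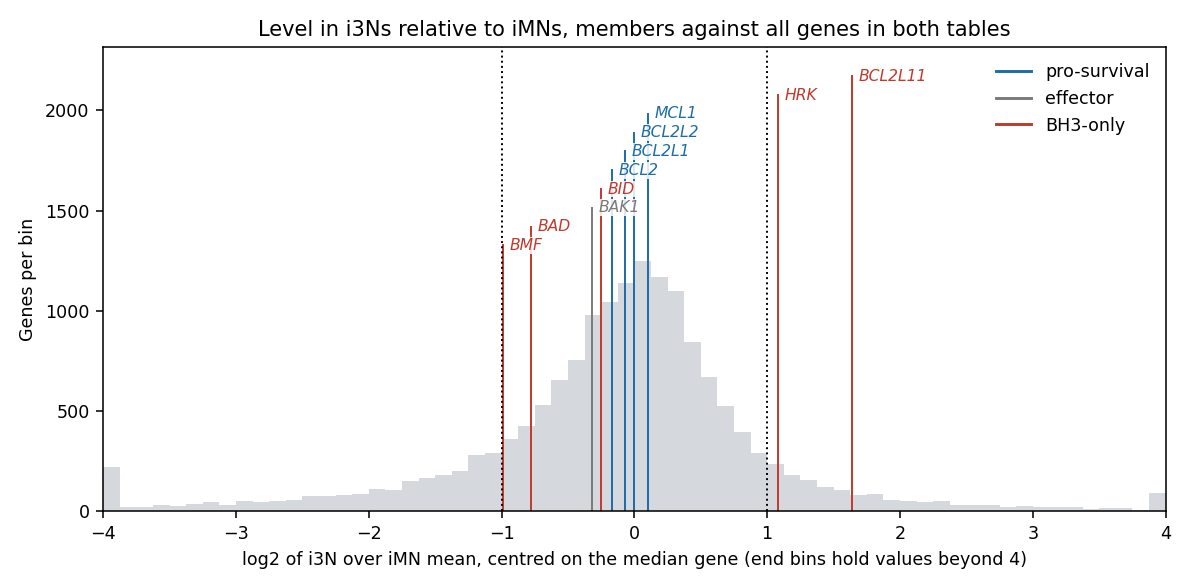
Number of genes per bin of the centred log2 ratio of i3N over iMN means, for the 16093 genes in both tables, with the 10 members as lines coloured by role and dotted lines at a 2-fold difference. The lines of the 4 pro-survival genes lie between -0.17 and 0.10, near the peak, and those of *HRK* (1.08) and *BCL2L11* (1.64) lie past the right dotted line.

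Within each kind of neuron, the make-up of the family can be given without scaling one table to the other. The pro-survival genes made up 59.3% of the summed level per kilobase of the 10 genes in iMNs and 65.5% in i3Ns. *BCL2L1* and *MCL1* carried most of it, with 27.1% and 24.1% in iMNs and 28.4% each in i3Ns. The 5 BH3-only genes held 37.6% in iMNs and 31.8% in i3Ns, and *BAK1* held 3.08% and 2.71%.

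The direction of the difference in the pro-survival share depended on the length used. With coding length in place of transcript length, the share was 62.5% in iMNs and 58.6% in i3Ns, and with no division by length it was 73.5% and 72.1%. *HRK* is the extreme case, with 276 coding bases in a transcript of 5789. No difference in this share between the kinds of neuron is therefore read from these data.

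**Figure D3:**
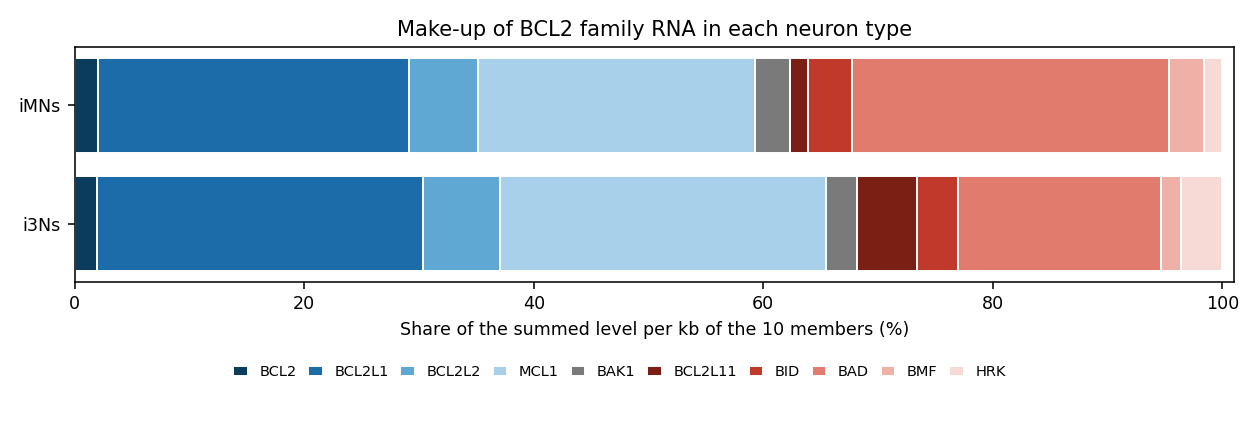
Share of each member in the summed level per kilobase of the 10 members, as stacked bars from 0 to 100% for iMNs and i3Ns, with pro-survival genes in blues, *BAK1* in grey and BH3-only genes in reds. The *BCL2L11* segment is 1.53% in iMNs and 5.25% in i3Ns, and the *BAD* segment is 27.6% and 17.7%.

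Other genes of the pathway were described from 4 lists. The highest and lowest means of a list are not divided by transcript length, and the order per kilobase can differ. Of 11 further family members, 10 were in both tables and *BCL2A1*, a pro-survival gene of blood cells, was in neither. Their centred median was 0.39. By the 2-fold mark, 2 were higher in i3Ns and 1 in iMNs. Of all genes, 9.46% were past the mark towards i3Ns and 15.2% towards iMNs. With so few genes, nothing particular to the list is read from its counts. *PMAIP1*, the gene of the BH3-only protein NOXA, was at 50 in iMNs and 210 in i3Ns, *BCL2L12* at 21.4 and 74.4, and *BIK* at 102 and 34.1. Their means were below 500. Genes at 500 or more in both tables lay past the mark less often (4.01% towards i3Ns and 6.93% towards iMNs). Within the 2-fold mark, *BBC3*, the gene of the BH3-only protein PUMA, was at 1214 and 2290, and *BAX* at 652 and 1263. *BNIP3L*, a mitophagy receptor, had the highest mean of the list in both kinds, 4135 and 6091, and *BCL2L10* the lowest, 9.40 and 7.42. Per kilobase in iMNs, *BNIP3* (1416) was above *BNIP3L* (1198).

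Downstream of the pore, cytochrome c binds APAF1 to activate caspase-9, a step that XIAP can block. Of 10 such genes, 9 were in both tables, with a centred median of -0.20, and by the 2-fold mark 1 was higher in i3Ns and 2 in iMNs. The shares of all genes were 9.46% and 15.2%, and nothing particular to these few genes is read from the counts. *CASP6*, an effector caspase gene, was at 65.5 in iMNs, the lowest there, and at 239 in i3Ns. *CYCS*, the gene of cytochrome c, was at 9597 and 4286, a centred log2 ratio of -1.26. The caspase inhibitor *XIAP* was at 9865 and 4985, or 2.12-fold higher in iMNs after centring. *BIRC6*, a large inhibitor of apoptosis, had the highest mean, 13700 and 17724. Per kilobase *BIRC6* was at 873 and 1130, below *DIABLO* at 1610 and 1506. The lowest in i3Ns was *BIRC5* (65.7), which was not in the iMN table.

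The partners that bind, cleave or turn over members were within the 2-fold mark in all 8 cases found in both tables, with a centred median of -0.25. So were 12130 of all 16093 genes, and the partners' means were all above 500, where fewer genes lie past the mark, so nothing particular to them is read from this count. *YWHAZ*, whose product holds phosphorylated BAD in the cytosol, had the highest mean, 52066 in iMNs and 46922 in i3Ns. Per kilobase *YWHAZ* was at 10390 and 9364, below *YWHAE* at 14191 and 11714. The dynein light chain genes *DYNLL1* and *DYNLL2*, whose products hold BIM and BMF on the cytoskeleton, were at 6403 and 16162 in iMNs and 5430 and 14887 in i3Ns. *VDAC2*, whose product holds BAK at the mitochondrion, was at 7030 and 8461. *CASP8*, which cleaves BID, was the lowest in i3Ns, at 19.7, and was not in the iMN table, where *BECN1* was the lowest at 1641 (1713 in i3Ns). *USP9X*, a deubiquitinase that stabilizes MCL1, was at 23847 and 13657, and *HUWE1*, a ligase that marks MCL1 for destruction, at 34971 and 31571.

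Of 6 transcription factors known to switch on BH3-only genes, 1 passed the 2-fold mark, towards i3Ns. Of all genes, 9.46% did so in that direction, and nothing particular to these factors is read from the count. *E2F1* was at 122 in iMNs and 400 in i3Ns, the lowest in iMNs. *FOXO1*, at 145 and 155, was the lowest in i3Ns. *JUN*, a driver of *HRK* and *BCL2L11* in neurons deprived of trophic factor, had the highest mean, 4522 and 6846, and *FOXO3*, a driver of *BCL2L11*, was at 3240 and 5652. The centred median of the 6 was 0.60.

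**Figure D4:**
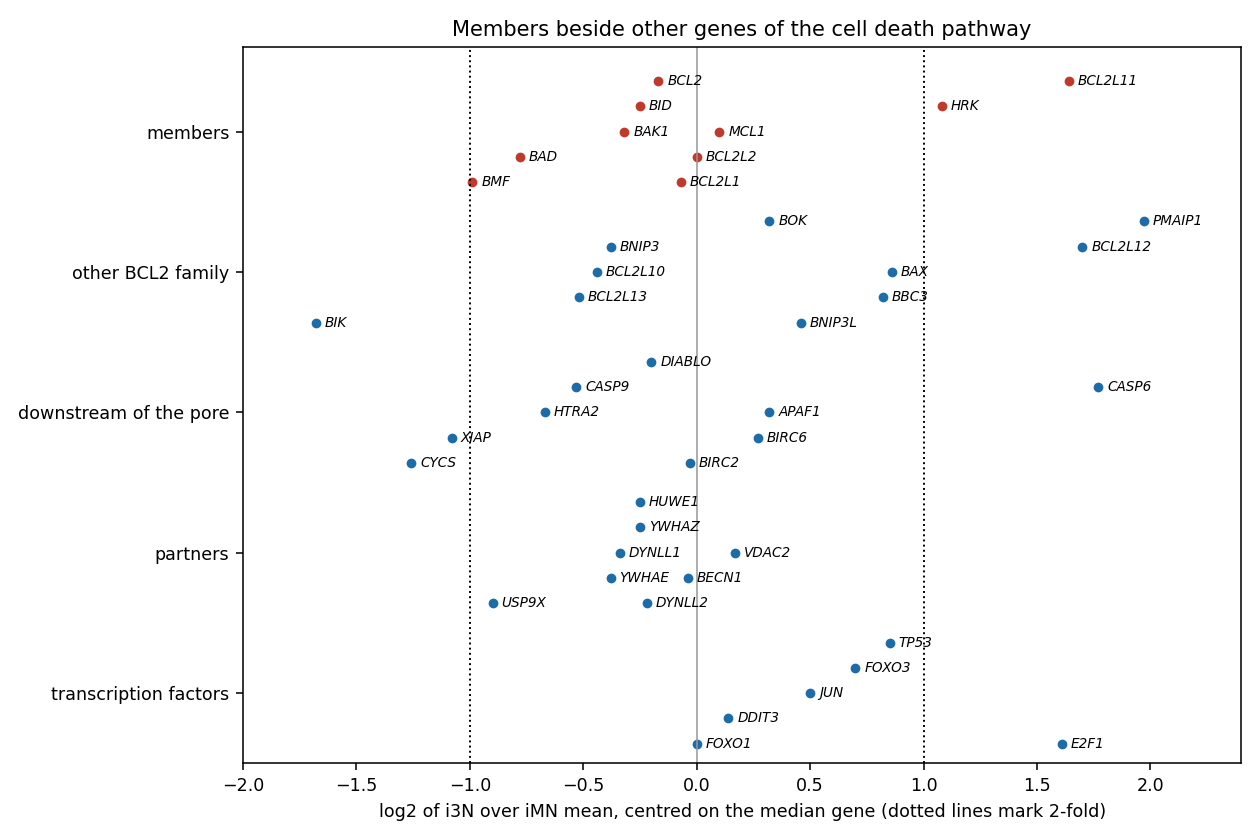
Centred log2 ratio of i3N over iMN means for the members (red) and for the genes of 4 other lists (blue), each point 1 gene, spread vertically only for legibility, with dotted lines at a 2-fold difference. Most genes lie between the dotted lines, as do 12130 of all 16093 genes, and the points run from *BIK* (-1.68) to *PMAIP1* (1.97). The lists were not tested against each other.

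Promoter sequences from RefSeq (GRCh38.p14), 250 bases before to 50 after the start used there, were at hand for 8 of the 10 genes, all but *BCL2L2* and *MCL1*. That start can differ from the end of the gene span given above. For *BCL2L11* the promoter is chr2:111120664-111120963, which lies inside the span that begins at 111119378. Both strands were searched for the motifs of factors in the last list and related ones. A FOXO motif, GTAAACA, was present in 3.41% of 27305 promoters and in that of *BCL2L11* alone among the 8. It is shown with 10 bases on either side, in capitals, because *BCL2L11* was the member farthest apart between the kinds of neuron. Whether the motif or a FOXO factor has a part in that difference was not tested. With so few promoters searched, whether the motif is more common in the family than among all promoters was not tested either.
BCL2L11 promoter, chr2:111120681-111120707, plus strand: agttactccgGTAAACAcgccagggac

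The AP-1 motif TGANTCA (7.76% of all promoters), the CRE motif TGACGTCA (1.98%) and the E-box CACGTG (7.43%) were in 0 of the 8. A match is a description of the letters and not a site of binding. The promoter of *BCL2L11* was 74.7% G and C, that of *HRK* 66.3% and that of *BAD* 68.3%, against a median of 58.3% over all promoters. The lowest of the 8 was *BCL2L1* with 52.0%.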

How the data were processed

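The libraries were made from total RNA after rRNA depletion and sequenced as paired ends. The authors used fastp for trimming, Salmon for quantification and DESeq2 for each kind of neuron. The labels also name STAR and hg38, and versions, annotation and low-count filter are not given in the sources used here. The deposited signal of a gene is its mean normalized count (counts divided by size factors, averaged over SCR and SMN-KD libraries), not divided by length. The other columns hold the authors' own comparison of SMN-KD with SCR (log2 fold change, standard error, p-value and adjusted p-value) and were not used. Depth per library and strandedness are unknown here, so precision cannot be given.

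Ratios between tables matched on the Ensembl identifier, lengths from GENCODE release 44 and motif searches were computed in Python 3.11.15 (pandas 2.3.3, NumPy 2.4.6). The ratio step was run on simulated data with planted ratios, which checks the code and not whether the centring suits these data. Genes named are the 10 members and genes of fixed lists: the highest, the lowest and those past 2-fold, with others named by role. The members and lists were chosen with earlier results of these data known, and HOX and cortical genes were added after values were seen. The labels' replicate numbers could not be used, since 0 columns hold values per library. Some genes of the lists are not reported here and were left out of their counts.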

Additional observations from a re-analysis of the deposited data

How the results depend on the processing

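The count of members at least 2-fold higher in i3Ns was 2 and that in iMNs was 0 under all 5 other centrings and with the identifiers of a symbol summed, of which centring on genes with a mean of at least 500 was added after the data had been seen. With a 1.5-fold mark, 2 were higher in iMNs (*BAD* and *BMF*) and 2 in i3Ns. Of the members' log2 ratios under other centrings, that of *BCL2L1* without centring changed sign, to 0.03, and that of *BCL2L2* (0.00) was between 0.00 and 0.10 except just under 0 when centred on genes with a mean of at least 500. The pro-survival share in iMNs was 60.7% with the longest annotated transcript, 62.5% with coding length, 73.5% with no division by length, 59.4% with *BCL2L2-PABPN1* added to *BCL2L2* and 46.3% without *MCL1*. In i3Ns, under the same settings, it was 66.2%, 58.6%, 72.1%, 65.6% and 51.8%. It was higher in i3Ns than in iMNs except with coding length and with no division by length. No paired analysis was possible because the tables hold pooled means with no replicate numbers, and no replicate could be left out. The precision of every value is unknown, and a pooled mean cannot separate SCR from *SMN*-KD levels.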
